A study of Homo sapiens with 4 samples.

Results

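Intergenic lncRNAs far from protein-coding genes were taken from the deposited table as lncRNA entries whose span overlaps no other entry and lies at least 10000 bases from every protein-coding entry of the chromosome, on either strand. Of 60048 entries, 16814 were lncRNAs, 5941 of these overlapped no other entry, and 3810 met both conditions. The other 2131 lay within 10000 bases of a protein-coding entry. EU-seq, which captures RNA made while cells take up the uridine analogue 5-ethynyl uridine (EU), was run in the human line HCT116, derived from a colorectal carcinoma, with genotype RAD21-mAC. In these cells the cohesin subunit RAD21 carries a degron tag, and auxin triggers its destruction. The control group (2 libraries) received the solvent DMSO, and the auxin group (2 libraries) was kept for 3 h in 0.5 mM indole-3-acetic acid. Both groups carry the tag and were labelled with 0.5 mM EU for 20 min, and untagged cells given auxin were not analysed here. The labels give neither the number of clones behind the line nor whether replicates came from separate cultures, so p-values measure only the spread between these libraries.

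Long noncoding RNAs are transcripts without a known protein product. Those that lie alone between genes often carry weak promoters, are made at low levels and are degraded quickly, so labelling of new RNA can detect transcripts that steady-state RNA misses. Some act in the nucleus or cytoplasm as RNA, as NORAD does by binding PUMILIO proteins, while others arise from enhancers. Cohesin extrudes chromatin loops that stop at sites bound by CTCF, and such loops can bring distant enhancers to promoters.

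Of the 3810 lncRNAs, 744 were at 0 in all 4 libraries and 3066 were above 0 in at least 1. A filter on low values left 1676 for testing (44%), against 65.7% of all entries, and 1390 lncRNAs above 0 were not tested. Values are a signal per entry on a common scale across libraries, and it is unknown how many reads stand behind each. The tested lncRNAs had a median span of 18174 bases and a median distance of 64297 bases to the nearest protein-coding entry. Per kb of span, their median signal was 1.60, against 23.2 in the other lncRNAs tested and 62.1 in protein-coding genes that overlap no entry. Markers of colorectal epithelium were present, with 9 of 10 at 50 or more in every library and a summed signal of 59392 to 66461, while CDX1 stayed between 6.74 and 17.0. Of the markers of other cell types, 1 of 4 for leukocytes, 1 of 4 for fibroblasts and 2 of 3 for endothelium reached 50 in every library. The leukocyte sum was 1077 to 1122 over the libraries. The fibroblast sum was 650.2 and 795 in control and 939 and 1077 in auxin, and the endothelial sum 581 and 649 in control and 680.4 and 819 in auxin. Both sums were higher in both auxin libraries, and their part in the results was not tested. Most of the fibroblast sum was COL1A1, at 577 and 732 in control and 893 and 998 in auxin. Of the other fibroblast markers, DCN and PDGFRB had log2 fold changes of 0.048 and -0.46, and COL1A2, at 5.36 or lower, was not tested.

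The table is not the only annotation of these loci. RefSeq places 234 of the 3810 lncRNAs over a protein-coding gene and a further 96 within 10000 bases of one, which leaves 3480 isolated under both annotations. The table's protein-coding spans were shorter than 50% of the RefSeq span for 624 of 18864 symbols (3.31%). PCDH7, a protocadherin gene beside 1 of the lncRNAs described here, is one of them.

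RefSeq promoter windows of 300 bases (250 before the start and 50 after it, GRCh38.p14) matched 695 of the 3810 lncRNAs by symbol, with 751 windows. Their median GC content was 47.7%, against 62.7% for protein-coding genes and 58.7% for all 35116 windows, and their median number of CpG dinucleotides was 4, against 21 and 14. The letters of a CTCF core (AGGGGGC or AGGTGGC, either strand) stood in 12.6% of the lncRNA windows and 20% of all windows. The TATA box (TATAAA) was found in 16.6% against 11.5%, the AP-1 site (TGANTCA) in 14.5% against 7.71%, and the AHR site (TTGCGTG) in 0.932% against 1.16%. No motif searched contains another. The windows of 3 lncRNAs with more signal after auxin are shown because these are the lncRNAs past the test that have an entry, while AC021218.1, AC010998.1 and AC098595.1 are named only. C1orf220 (chr1:178542546-178542845, plus strand) has 68% GC and 31 CpG and holds none of the motifs. LINC00620 (chr3:13650471-13650770, plus strand) has 72.7% GC and 31 CpG, with a CTCF core on the minus strand from position -151 relative to the start, in capitals. LINC02255 (chr15:74378832-74379131, plus strand) has 55.7% GC and 5 CpG, with TATAAA on the minus strand from position -241, also in capitals. All are written 5′ to 3′ as RefSeq gives them.
C1orf220: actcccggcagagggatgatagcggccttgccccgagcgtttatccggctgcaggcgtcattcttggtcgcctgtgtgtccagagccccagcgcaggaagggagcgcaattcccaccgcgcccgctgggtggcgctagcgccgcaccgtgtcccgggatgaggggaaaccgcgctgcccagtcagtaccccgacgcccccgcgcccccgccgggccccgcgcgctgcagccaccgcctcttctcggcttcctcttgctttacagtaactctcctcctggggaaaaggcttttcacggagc
LINC00620: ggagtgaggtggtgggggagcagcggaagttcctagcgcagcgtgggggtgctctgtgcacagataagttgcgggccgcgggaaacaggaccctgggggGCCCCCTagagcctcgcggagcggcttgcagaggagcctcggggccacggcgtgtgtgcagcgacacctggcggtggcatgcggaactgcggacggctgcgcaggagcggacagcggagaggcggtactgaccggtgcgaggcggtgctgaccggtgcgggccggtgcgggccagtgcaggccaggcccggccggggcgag
LINC02255: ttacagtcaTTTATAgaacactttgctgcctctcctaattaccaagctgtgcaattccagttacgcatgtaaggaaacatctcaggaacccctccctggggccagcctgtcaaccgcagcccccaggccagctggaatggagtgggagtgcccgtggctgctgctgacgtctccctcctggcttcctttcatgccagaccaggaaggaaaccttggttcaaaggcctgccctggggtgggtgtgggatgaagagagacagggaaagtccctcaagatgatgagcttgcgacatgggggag
The AP-1 and AHR letters were absent from all 3 windows. A match shows only that the letters are present.

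The comparison of auxin with control asked which of these lncRNAs changed their new transcription within 3 h of RAD21 depletion. C1orf220, AC021218.1, AC010998.1, LINC02255 and LINC00620 rose, by 2.28-fold to 4.01-fold in group means, and AC098595.1 fell to 0.251 of its control mean. These 6 of 1676 tested lncRNAs (0.358%) had a limma adjusted p under 0.05, against 0.732% of all 39464 entries tested. The 5 higher ones compare with 0.332% of all entries and the 1 lower with 0.4%. At an unadjusted p under 0.05 there were 131 lncRNAs (7.82%), against 10.2% of all entries. With the replicate number as a block in the limma fit, 107 lncRNAs passed (6.38%, against 10.8% of all entries), 75 of them higher (against 4.93%) and 32 lower (against 5.9%). In that fit limma took each entry's variance from the trend over signal level alone. Its p-values therefore do not measure the spread of the entry's own replicates.

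C1orf220 (ENSG00000213057) spans GRCh38 chromosome 1, 178542796 to 178548889, on the plus strand. Its symbol is that of an open reading frame, and the table types it as lncRNA. The signal was 404 and 382 in control replicates 1 and 2, and 1394 and 1759.6 in auxin replicates 1 and 2. Both auxin libraries were far above both controls, which lay close together. The control mean was 393 ± 16.0 and the auxin mean 1577 ± 259 (SD, n = 2 each). The resulting log2 fold change, 1.99 ± 0.19 (SE), passed the test (limma adjusted p = 0.00179). The nearest protein-coding gene, TEX35, lies 20145 bases away, was listed at 5.08 in control replicate 1 and at 0 in the other libraries, and was not tested. Nothing in the table lies within 12023 bases of C1orf220.

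AC021218.1 (ENSG00000204876, chromosome 7, 155962632 to 155966343, plus strand) stands most alone of the 6, with no other entry within 150168 bases. Control libraries 1 and 2 gave 196 and 225, and auxin libraries 1 and 2 gave 634 and 994. The groups did not overlap, and auxin replicate 2 was the highest. Group means were 210.5 ± 20.7 and 814 ± 255 (SD, n = 2 each), and the log2 fold change was 1.91 ± 0.25 (SE; limma adjusted p = 0.0077). Its nearest protein-coding gene is SHH, which encodes the Sonic hedgehog ligand and lies on the minus strand, so that AC021218.1 is upstream of its start. SHH had 83.9 and 48.1 in control and 82.9 and 49.4 in auxin, with a log2 fold change of 0.011 (limma adjusted p = 0.998). The libraries of SHH differed by replicate number and not by group.

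AC010998.1 (ENSG00000227307, chromosome 10, 120925547 to 120980700, minus strand) is a long entry of 55154 bases that runs toward the end of WDR11, which encodes a WD-repeat protein. Its signal was 162 and 161 in control and 459 and 393 in auxin. The controls were almost equal and the auxin libraries lay well above them, with group means of 161 ± 0.877 and 426 ± 47.0 (SD, n = 2 each). Its log2 fold change was 1.39 ± 0.22 (SE; limma adjusted p = 0.0214). WDR11, 16022 bases away, had 4205 and 4564 in control and 4972 and 4496 in auxin, and its groups overlapped (log2 fold change 0.11, limma adjusted p = 0.910).

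LINC02255 (ENSG00000277718, chromosome 15, 74379083 to 74390535, plus strand) had the highest signal of the 6. It was 958 and 1201 in control and 2372 and 2607 in auxin. The replicates of each group lay closer together than the groups did. Its log2 fold change was 1.21 ± 0.17 (SE; limma adjusted p = 0.0134). CYP11A1, which encodes the enzyme that starts steroid hormone synthesis from cholesterol, lies 11436 bases away and points the other way. CYP11A1 had 105 and 90.0 in control and 134 and 137 in auxin. These groups did not overlap either, but the difference did not pass (log2 fold change 0.47, limma adjusted p = 0.629).

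LINC00620 (ENSG00000224514, chromosome 3, 13650721 to 13746637, plus strand) is the longest of the 6 at 95917 bases. Control gave 224 and 283 and auxin gave 528 and 627. The groups did not overlap, and its log2 fold change was 1.19 ± 0.22 (SE; limma adjusted p = 0.0425). That call was lost without auxin replicate 2 (limma adjusted p = 0.123) and without control replicate 1 (0.0842). FBLN2, which encodes the matrix protein fibulin-2, ends 12316 bases upstream on the same strand. FBLN2 had 132 and 121 in control and 113 and 128 in auxin, which overlapped (log2 fold change -0.07, limma adjusted p = 0.985).

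AC098595.1 (ENSG00000286596, chromosome 4, 30718805 to 30721970, minus strand) was the one lncRNA that fell. The signal was 117 and 195 in control and 31.2 and 47.2 in auxin. Both auxin libraries lay below both controls, and replicate 2 was the higher in each group. Its log2 fold change was -1.95 ± 0.36 (SE; limma adjusted p = 0.0408), and the call was lost without control replicate 2 (limma adjusted p = 0.160). The table places PCDH7 198182 bases away, at 30920153 to 30987807. RefSeq starts PCDH7 at 30720369 and ends it at 31146800, so the lncRNA covers the RefSeq start, and it also overlaps RefSeq gene LOC124900844. By RefSeq, AC098595.1 is therefore not intergenic. The PCDH7 entry of the table had 3789 and 6219 in control and 1762 and 2616 in auxin, lower in both auxin libraries, with a log2 fold change of -1.18 that did not pass (limma adjusted p = 0.0710).

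**Figure D1:**
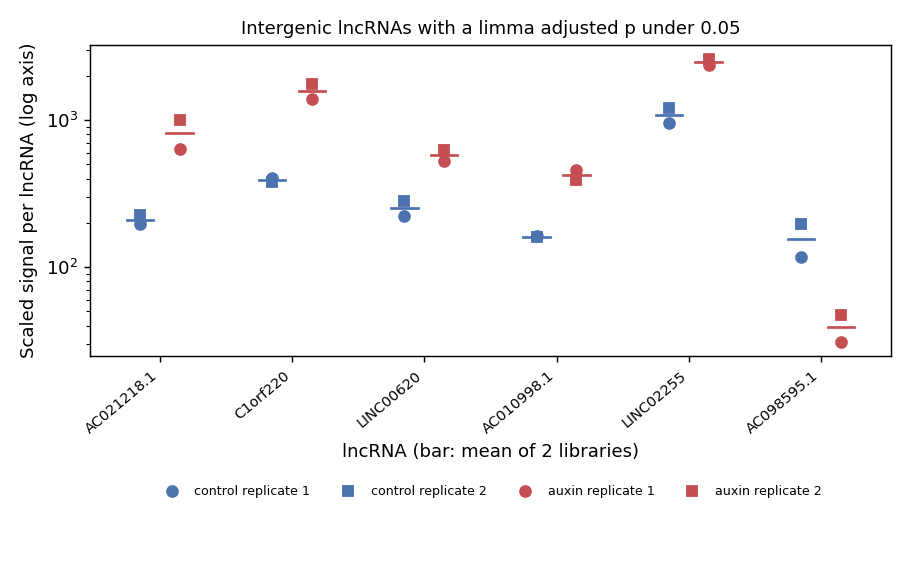
Scaled signal per lncRNA (log axis) of the 6 intergenic lncRNAs with a limma adjusted p under 0.05, with 1 point per library and a bar at the mean of each group's 2 libraries. The auxin points lie above the control points for 5 lncRNAs and below them for AC098595.1, with no overlap.

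Per kb of span, the 6 lncRNAs fell into separate levels. C1orf220, LINC02255 and AC021218.1 had a mean signal per kb of 162, 156 and 138, AC098595.1 had 30.9, and the long entries AC010998.1 and LINC00620 had 5.33 and 4.33. All 6 were above the class median of 1.60. C1orf220 and AC021218.1 passed in all 13 settings of the fit, AC010998.1 and LINC02255 in 12, AC098595.1 in 10 and LINC00620 in 8. On the deposited scale, with no further scaling between libraries, AC010998.1, LINC02255 and LINC00620 had limma adjusted p-values of 0.318, 0.548 and 0.707.

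Calls went with signal level. Among lncRNAs with a mean of at least 200, 5 of 196 passed (2.55%), against 1.34% of all entries at that level. From 50 to under 200 there was 1 of 382 (0.262%, against 0.13%). Under 50, where 1098 of the 1676 lncRNAs lay, limma called 0, against 0.0097% of entries at that level, and 43 of the 1098 (3.92%) had an unadjusted p under 0.05, against 4.28% of entries at that level. The median standard error was 0.55 under 50 and 0.23 from 200, so that small changes in the weak majority were not detectable here. At a mean of at least 50 together, 6 of 578 passed (1.04%), against 0.988% of all entries.

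**Figure D2:**
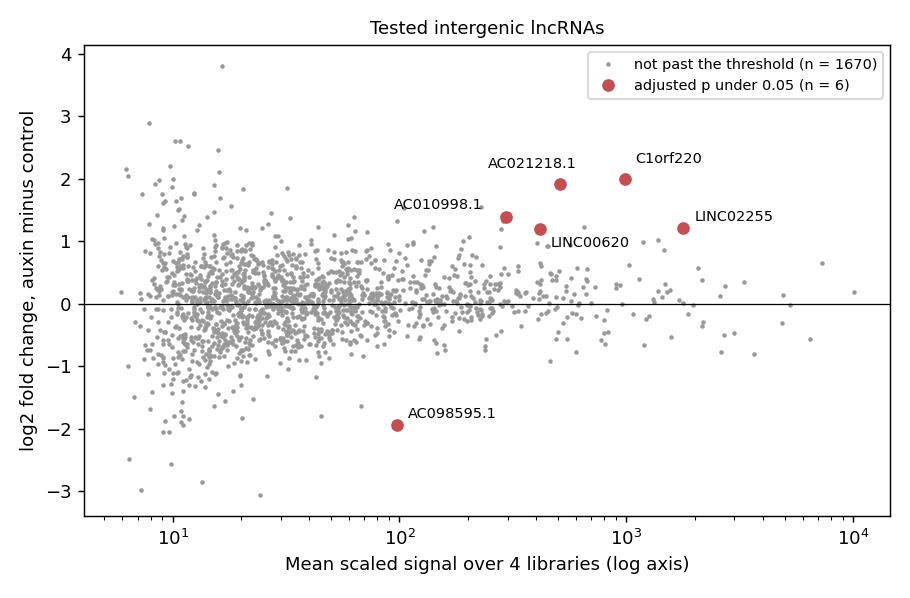
Log2 fold change, auxin minus control, of the 1676 tested lncRNAs against their mean scaled signal over 4 libraries (log axis), with the 6 that passed a limma adjusted p of 0.05 in red. The points spread widely at low signal, from -3.06 to 3.80, and the named lncRNAs lie at higher signal. They do not stand apart there, since AC114489.1 (1.23) and AC003988.1 (1.55) did not pass but exceed LINC00620 (1.19).

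The class as a whole was shifted by little. The median log2 fold change of the 1676 was 0.060, against 0.0089 for all entries tested, and 930 of them (55.5%) were above 0, against 51.3%. Both auxin libraries lay above both controls for 346 lncRNAs (20.6%, against 18.6% of all entries), and below both for 254 (15.2%, against 19.6%). With a mean of at least 50 the median was 0.10, against 0.0063 for all entries at that level, and it ranged from 0.060 to 0.18 over the 13 settings. Their median deviation from the mean of each lncRNA was -0.036 and -0.055 in control replicates 1 and 2, and 0.013 and 0.10 in auxin replicates 1 and 2. Both auxin libraries were above both controls, with auxin replicate 2 the furthest out. The difference had a two-sided exact permutation p of 0.333, the smallest that 2 libraries against 2 allow.

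Distance, length and name were examined next. The 731 tested lncRNAs from 10000 to under 50000 bases from a protein-coding entry had a median log2 fold change of 0.097 with 4 calls (0.547%), and the 524 from 50000 to under 200000 bases had 0.075 with 2 (0.382%), against 0.732% of all entries. Without control replicate 2 these medians were 0.019 and 0.027. The 421 lncRNAs at 200000 bases and more had a median of -0.025 with 0 limma calls (24, or 5.7%, at an unadjusted p under 0.05, against 10.2% of all entries). The sign of that last median changed without auxin replicate 1 (0.097), with scaling by library size only (0.0093) and at a mean of at least 50 (0.059). Over the 13 settings it ran from -0.068 to 0.097. With library size only the median of all entries was 0.044, so these lncRNAs stayed below it, as they did in the main fit (0.0089). By span, the medians were 0.14 under 5000 bases (333 lncRNAs), 0.060 from 5000 to under 50000 (972) and 0.025 from 50000 (371), each with 2 calls (0.601%, 0.206% and 0.539%). Over the 13 settings they ran from 0.085 to 0.18, from 0.012 to 0.16 and from -0.029 to 0.068. Without control replicate 2 they were 0.085, 0.012 and -0.025. Names beginning with LINC covered 510 tested lncRNAs with 2 calls (0.392%), clone names 1090 with 3 (0.275%), and other symbols 75 with 1 (1.33%). The only tested miRNA host was not called. These classes overlap and differ in signal level, and differences between them were not tested.

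Single libraries gave a view of the differences between replicates, which can hold an offset tied to the replicate number besides error. At a mean of at least 50, the replicate differences of control and auxin correlated with r = 0.59. Such an offset would enter the replicate pairs and the auxin pairs of unlike number, but not the auxin pairs of like number. Among the 1676 lncRNAs, the share at least 2-fold apart was 14.7%, 19.5%, 19.7% and 19.7% when each auxin library was set against each control library. The control replicates gave 16.3%, and the auxin replicates 16.9%. Over all entries tested, the same pairs gave 6%, 8.51%, 8.8% and 7.63%, with 7.43% and 6.32% between replicates. Over the 1676 lncRNAs the auxin pairs thus differed about as much as replicates did. Their standard deviations on the log2 scale were 1.03 times as large on average, against 1.05 over all entries. With a mean of at least 50 the auxin pairs gave 6.23%, 11.2%, 11.8% and 9.69%, against 6.23% and 5.88% between replicates. All entries at that level gave 1.68%, 3.8%, 4.14% and 2.64%, against 2.48% and 1.39%. The ratio of standard deviations was then 1.09 for the lncRNAs and 1.12 for all entries.

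With a mean of at least 50, the direction of the large differences could be read. Auxin replicate 1 was at least 2-fold above control replicate 1 for 24 of 578 lncRNAs and below it for 12, and against control replicate 2 the counts were 38 and 27. Auxin replicate 2 was above control replicate 1 for 53 and below for 15, and against control replicate 2 for 49 and 7. Between replicates, control 1 was above control 2 for 19 and below for 17, and auxin 1 was above auxin 2 for 11 and below for 23. Higher lncRNAs outnumbered lower ones in all 4 auxin pairs, and most in those with auxin replicate 2, which was also the higher of the auxin replicates. Over all 29158 entries at that level, the counts above and below in the same 4 pairs were 265 and 226, 554 and 554, 669 and 537, and 454 and 316. All entries thus also had more higher than lower ones in the pairs with auxin replicate 2. The part of that library in the excess was not tested.

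**Figure D3:**
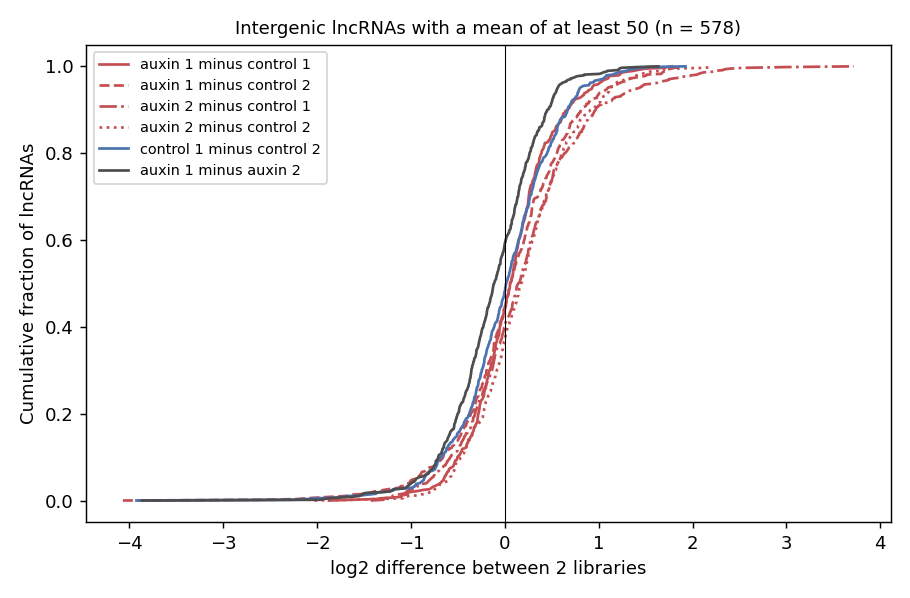
Cumulative fraction of the 578 lncRNAs with a mean of at least 50 by their log2 difference between 2 libraries, with the 4 auxin minus control pairs in red, control replicate 1 minus 2 in blue and auxin replicate 1 minus 2 in dark grey. The red curves with auxin replicate 2 lie furthest to the right, and the red and replicate curves overlap over most of their range.

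Some lncRNAs differed between replicates far more than between groups. Of the 578, 36 were at least 2-fold apart in the control replicates and 34 in the auxin replicates. In 12 of them this held in both groups, always the same way, with 6 higher and 6 lower in replicate 2. AC245060.5, on chromosome 22 from 22283928 to 22287220, had 29.7 and 465 in control replicates 1 and 2 and 26.8 and 403 in auxin replicates 1 and 2. Its level followed the replicate number and its log2 fold change with auxin was -0.17. AC012625.1 on chromosome 5 had 231 and 765 in control and 212 and 777 in auxin, the same pattern. MRPL23-AS1 and LINC01219, neighbours on chromosome 11, went the other way. MRPL23-AS1 had 569 and 228 in control and 617 and 232 in auxin. LINC01219 had 163 and 70.6 in control and 163 and 69.6 in auxin. Neither differed between groups, with log2 fold changes of 0.071 and -0.0076. These 4 lncRNAs were chosen after their values were seen.

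**Figure D4:**
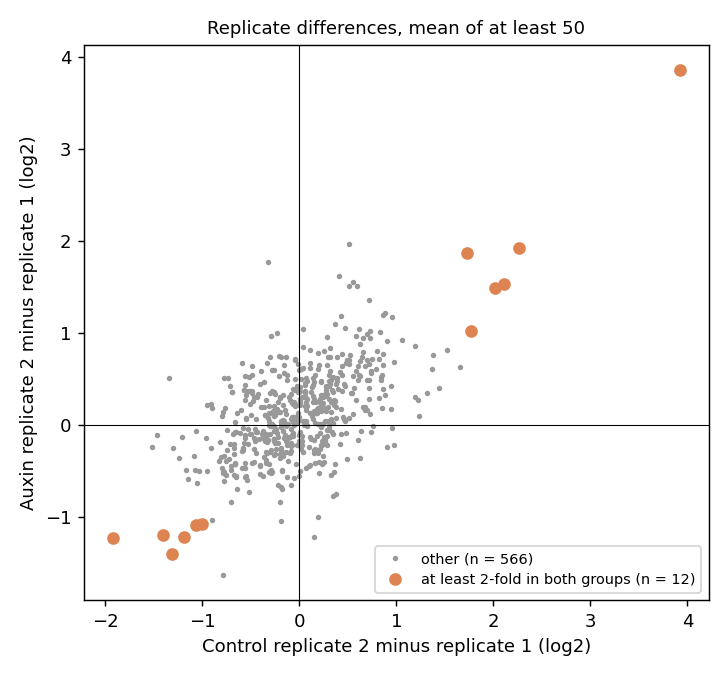
Log2 difference of replicate 2 minus replicate 1 in auxin against the same difference in control, for the 578 lncRNAs whose mean was 50 or more; the 12 that differ at least 2-fold in both groups are orange. All 12 lie in the lower left or upper right, and AC245060.5 is the point furthest to the upper right.

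Lists of well-described lncRNAs overlap this class little. Of 108 listed, 94 were lncRNA entries of the table, 15 were isolated and 12 were tested. limma called 0 of the 12, against 0.732% of all entries, and 1 had an unadjusted p under 0.05, against 10.2%. With the replicate block, LINC00659 (limma adjusted p = 0.0051) and LINC01315 (0.0173) passed, against 10.8% of all entries. With only 12 lncRNAs, these counts do not set the list apart from all entries. The 12 had a median log2 fold change of 0.13, against 0.0089 for all entries, and 8 were above 0, against 51.3%. At an unadjusted p, LINC00659 was the one, with 343 and 325 in control and 528 and 491 in auxin. Its groups did not overlap, but the log2 fold change of 0.61 did not pass (limma adjusted p = 0.267). LINC01315 had 1123 and 814 in control and 766 and 636 in auxin. Both auxin libraries lay below the controls there, with a log2 fold change of -0.45 (limma adjusted p = 0.511).

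NORAD, which holds PUMILIO proteins in the cytoplasm and guards chromosome stability, had the most signal per kb of all tested lncRNAs, at 908. It was at 4219 and 5175 in control and 5031 and 5194 in auxin. The groups overlapped, and the log2 fold change was 0.13 (limma adjusted p = 0.889). LINC01234 had the most signal in total, with 9844 and 9054 in control and 10669 and 10749 in auxin. Its auxin libraries were slightly above both controls, with a log2 fold change of 0.18 (limma adjusted p = 0.712).

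The other listed lncRNAs were weaker. LINC-ROR, first described in pluripotent cells, had 103 and 114 in control and 80.3 and 97.7 in auxin, which did not overlap (log2 fold change -0.28, limma adjusted p = 0.863). PINCR, a lncRNA induced by p53, had 49.2 and 68.6 in control and 45.5 and 24.7 in auxin, lower in both auxin libraries (log2 fold change -0.77, limma adjusted p = 0.595). PCAT14, LINC00958, LINC00520 and CASC18 had log2 fold changes of 0.54, 0.56, 0.13 and 0.36, and none passed. PCAT14 also overlaps the RefSeq protein-coding gene LOC124900476.

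Both remaining listed lncRNAs lie near protein-coding genes that fell. LINC00460 is 105429 bases from EFNB2, which encodes the Eph receptor ligand ephrin-B2 and had a log2 fold change of -1.07 (limma adjusted p = 0.0319). LINC00460 had 46.6 and 149 in control and 72.2 and 112 in auxin. Its groups overlapped, since the control replicates enclosed the auxin ones, and its log2 fold change of 0.11 ran from -0.71 to 0.94 over the settings. LINC01559 is 150169 bases from GRIN2B, which encodes a subunit of the NMDA glutamate receptor and had a log2 fold change of -0.78 (limma adjusted p = 0.0176). LINC01559 had 11.0 and 16.4 in control and 8.91 and 4.49 in auxin, lower in both auxin libraries at a level close to the filter. Its log2 fold change of -0.97 did not pass (limma adjusted p = 0.749).

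**Figure D5:**
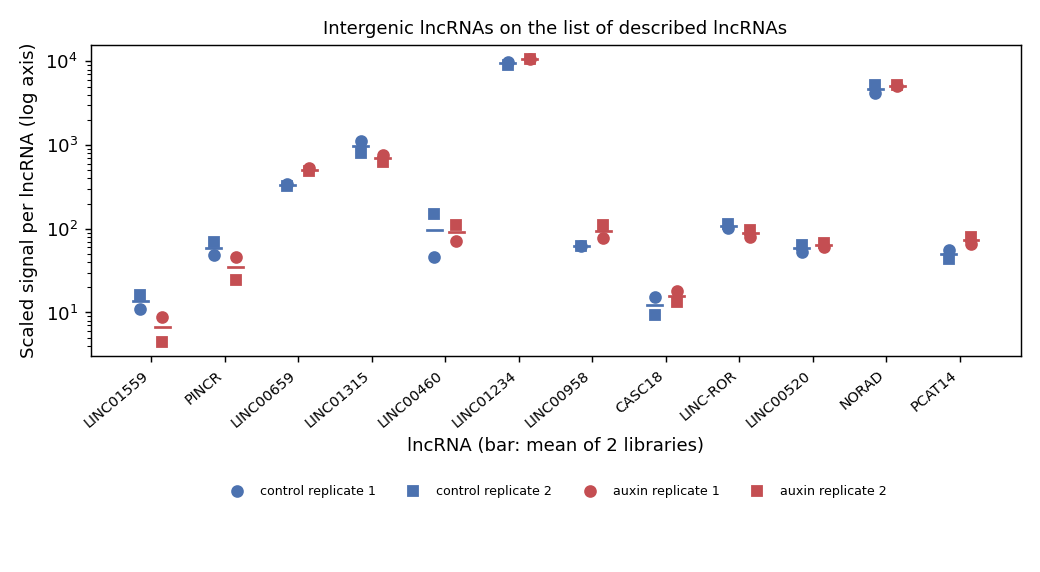
Scaled signal (log axis) of the 12 tested lncRNAs on the list of described lncRNAs, with 1 point per library and a bar at the mean of each group's 2 libraries. LINC01234 and NORAD lie highest, and none of the 12 passed the test.

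Besides NORAD, the most signal per kb was found for LINC02595 (813), AL391095.3 (764), LINC00896 (622) and AC120024.1 (605). LINC02595, on chromosome X and 595755 bases from a protein-coding entry, had 4472 and 4816 in control and 3073 and 2268 in auxin. Both auxin libraries were lower, and the log2 fold change of -0.81 did not pass (limma adjusted p = 0.0710). It passed with the replicate block (limma adjusted p = 2.3e-11), a fit that does not use the entry's own replicate spread. Without auxin replicate 1 its log2 fold change was -1.02. AL391095.3, LINC00896 and AC120024.1 had log2 fold changes of -0.21, 0.018 and -0.17. The sign for LINC00896 varied over the 13 settings, from -0.16 to 0.21.

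The nearest protein-coding gene was compared with each lncRNA. Over 1520 pairs in which both were tested, Spearman's rho between the log2 fold changes was 0.077. For the difference of control replicates the same pairs gave 0.10, and for that of auxin replicates 0.080. The value for auxin rests on 2 libraries per group, and the replicate values on single libraries. Single auxin libraries against single controls gave 0.0065 to 0.12 over all pairs, on both sides of the replicate values. Over the 684 pairs under 50000 bases apart rho was 0.13 for auxin, against 0.086 and 0.091 for the control and auxin replicates. Single-library comparisons of auxin with control gave 0.080 to 0.16 there. Over the 836 pairs further apart rho was 0.023, against 0.094 and 0.063, and the single-library comparisons gave -0.048 to 0.070. Pairs share libraries, and several lncRNAs share a gene, so these are descriptions. The 9 lncRNAs whose nearest protein-coding gene rose had a median log2 fold change of -0.25, and the 35 whose gene fell had -0.029. limma called 0 of these 44 lncRNAs, against 0.732% of all entries, and 44 are too few to show a difference from that share.

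The lncRNAs together held 0.275% and 0.294% of all signal in control replicates 1 and 2, and 0.293% and 0.321% in auxin replicates 1 and 2. The groups overlapped. The means were 0.284% ± 0.0139 and 0.307% ± 0.0199 (SD, n = 2 each), a difference of 0.0223 percentage points (two-sided exact permutation p = 0.667). Without 17 lncRNAs of chromosome 21 clones, which have near-identical copies, the shares were 0.242% and 0.256% in control and 0.266% and 0.289% in auxin. Both auxin libraries were then above both controls (two-sided exact permutation p = 0.333, the smallest possible here). The 10 lncRNAs with most signal took 21.2% to 24.7% of it.

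The distance limit fell among lncRNAs with ordinary values. Just inside lay LINC02417 at 10002 bases, AC110285.1 at 10010 and AL133167.1 at 10024. AC110285.1 was the only tested one, with 398 and 300 in control and 370 and 271 in auxin. Just outside lay AC021483.1 at 9992 bases, AC100814.1 at 9986 and LNCAROD at 9975. LNCAROD had 314 and 739.9 in control and 191 and 415 in auxin, which overlapped.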

How the data were processed

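EU-labelled RNA was sequenced in 4 libraries, grouped by sample title. Per the submitters' processing notes, the tools named are Trimmomatic 0.39, Bowtie2 2.4.5 and deepTools 3.5.1, with builds hg38 and dm6, the latter for fly RNA added as a spike-in. How reads were counted and scaled is not given in the sources used here. The authors deposited 1 table with a scaled signal per entry and library, besides the span in bases, type and coordinates. The misspelt name of 1 control column was matched by its replicate number. Starts were read as counting from 0, because of 1038 symbols in RefSeq 342 had a RefSeq start exactly 1 higher, and are printed 1 higher.

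An entry was tested if 2 or more libraries reached 10, on the scale of a library of median total, and the 4 together reached 15. Libraries were scaled by trimmed means (divisors 0.999, 1.01, 0.816 and 1.21), which removes any change in total RNA. The log2 of signal plus a pseudocount of 1 was fitted with limma 3.58.1 (R 4.3.3, lmFit and eBayes with a trend) over all 39464 entries, with Benjamini-Hochberg adjustment. With the replicate block, on the deposited scale and without either auxin library, limma set each variance to the trend alone. Those p-values do not use the entry's own replicate spread. Fold changes on this scale understate changes of weak entries. In simulated data, 43.3% of 200 entries changed 2-fold were recovered and 83.6% of those changed 4-fold. The changed entries were drawn from all 39464 tested, whose median standard error was 0.25, against 0.46 for the lncRNAs of this class. Recovery within this class was not simulated. Python 3.11.15, pandas 2.3.3, scipy 1.17.1 and matplotlib 3.10.9 were used.

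Named were all lncRNAs past the threshold with their nearest protein-coding gene, the 5 with most signal per kb, the tested ones on the list of described lncRNAs, and 3 on each side of the distance limit. The members and lists were chosen with earlier results of these data known. Alternatives varied scaling, filter, pseudocount, replicate block, threshold, distance limit and libraries. Restriction by RefSeq and leaving out chromosome 21 clones were added after seeing the data.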

Additional observations from a re-analysis of the deposited data

How the results depend on the processing

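The count of 6 lncRNAs past the threshold was 107 with the replicate number as a block (all 6 among them), 2 at an adjusted p under 0.01 and 2 at a distance of at least 50000 bases. Leaving out 1 library gave 5 to 27: 27 without auxin replicate 1 (24 higher, 3 lower), 15 without auxin replicate 2 (6 higher, 9 lower), 9 without control replicate 1 and 5 without control replicate 2, where the lone library is assumed to vary like the others. Other scalings, filters and pseudocounts, the 1000-base limit, the RefSeq restriction and leaving out the chromosome 21 clones gave 4 to 9. The deposited scale gave 5 of 1676, of which 3 were shared with the 6, against 0.139% of all entries. There the share of the class was above that of all entries, while in the main fit it was below. The labels do not say that a replicate number marks a shared culture. The replicate differences of control and auxin correlated with r = 0.12 over the 1676 lncRNAs, and r = 0.59 over the 578 with a mean of at least 50. These points share 4 libraries.

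The median log2 fold change of 0.060 was 0.11 at a mean of at least 50, and ran from 0.0084 without control replicate 2 to 0.13 without auxin replicate 1. The ratio of standard deviations of 1.03 became 1.09 at a mean of at least 50. The rho of 0.077 with the nearest gene became 0.13 at a mean of at least 50 (492 pairs) and 0.023 at 50000 bases and more (836 pairs). Over the 492 pairs the control replicates gave 0.24 and the auxin replicates 0.11. AC098595.1 missed the threshold at a mean of at least 50 (limma adjusted p = 0.0518) and with no filter (0.0714), as did LINC00620 (0.0546 and 0.0589). Over all entries, the 289 calls became 4273 with the block, 55 on the deposited scale and 82 at an adjusted p under 0.01. The cause of these changes was not tested. No named lncRNA past the threshold changed direction under these alternatives. Depth in reads is unknown, and low signal limits 1098 of the 1676 lncRNAs.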

Other observations

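A further 14 lncRNAs of the class had a limma adjusted p from 0.05 to 0.15, 9 higher and 5 lower, and were looked at after their values were seen. The share of all entries in this range was not counted, so the 14 cannot be set against it. Choice by a small p also favours groups that do not overlap, so the lack of overlap among these 14 adds no support. AC114489.1, between SYNC and KIAA1522 on chromosome 1, had 489 and 306 in control and 974 and 843 in auxin (log2 fold change 1.23, limma adjusted p = 0.0575). AC110048.2, between the TGF-beta signalling genes SMAD6 and SMAD3 on chromosome 15, had 91.5 and 76.7 in control and 175 and 221 in auxin (log2 fold change 1.22, limma adjusted p = 0.0861). AL138720.1, an entry of 360136 bases between CD83 and JARID2, had 879 and 1216 in control and 1615 and 2158 in auxin (log2 fold change 0.85, limma adjusted p = 0.131). In all 3 the auxin libraries lay above both controls. LINC02753 and LPP-AS2 are also among the 14 but overlap ANO1 and LPP in RefSeq.

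The stretch of chromosome 11 between MYEOV and CCND1 holds AP000439.1 and LINC01488, both among these 14. AP000439.1 (69438365 to 69444743) had 82.2 and 124 in control and 25.9 and 39.3 in auxin, with a log2 fold change of -1.63 (limma adjusted p = 0.0936). LINC01488 (69485611 to 69494952) had 21.2 and 27.6 in control and 1.78 and 3.37 in auxin, with a log2 fold change of -2.86 (limma adjusted p = 0.126). Both were lower in both auxin libraries. CCND1, which encodes cyclin D1, had 27208 and 28593 in control and 17126 and 16078 in auxin and fell (log2 fold change -0.75, limma adjusted p = 0.0111). MYEOV had 30648 and 29203 in control and 34148 and 36527 in auxin, and did not pass (log2 fold change 0.24, limma adjusted p = 0.417).

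Of 112 stretches between protein-coding entries with at least 3 tested lncRNAs, 13 had all their log2 fold changes above 0 and 12 had all below 0. In 1 stretch, MDGA2 to RPS29, both auxin libraries lay above both controls for all 3 lncRNAs, and in 1, ROBO1 to GBE1, below both controls for all 3. None of these 6 lncRNAs passed. In the latter, AC108690.1, LINC02027 and AC099542.1 had log2 fold changes of -0.45, -0.43 and -0.62. Of all tested lncRNAs of the class, 55.5% had a log2 fold change above 0. Both auxin libraries lay above both controls for 20.6% and below both for 15.2%, against 18.6% and 19.6% of all entries. How often 3 unrelated lncRNAs would point the same way was not tested.

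Clones of chromosome 21 with near-identical copies gave 17 lncRNAs, which held 11.0% of the class's signal. Of the 14 tested, 12 were below 0, with a median of -0.30, while 51.3% of all entries were above 0. limma called 0 of the 14, against 0.732% of all entries, and 14 are too few to show a difference from that share. Copies can split or share reads, so these values are uncertain.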
